A study of Drosophila melanogaster with 4 samples.

Results

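The euchromatic H3K9me2 regions of chromosome arm 2L are stretches in which histone H3 dimethylated at lysine 9 was called enriched by chromatin immunoprecipitation with sequencing (ChIP-seq). Nuclei came from heads of adult wild-type Oregon-R flies (Drosophila melanogaster, stage given as mixed adult), with 2 ChIP libraries and 2 input libraries, and a new antibody lot was used, per the labels. There was no mutant or treated group, and the sex of the flies is not given. The authors deposited a list of enriched regions for each ChIP library, called replicate 1 and replicate 2, and a combined list for the pair. A region was taken where its midpoint lay at or below position 21011544 of 2L (FlyBase Release 5), which is the arm length of 23011544 bp minus the 2 Mb next to the centromere. Replicate 1 held 637 such regions of 6264 in all, replicate 2 held 1329 of 10907, and the combined list held 1435 of 10762.

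H3K9me2 is a mark of silent chromatin. In Drosophila it is written by methyltransferases such as Su(var)3-9, eggless and G9a, and it is bound by heterochromatin protein 1a (HP1a), which packs the marked chromatin. The mark is best known from the repeat-rich sequence around centromeres. Along the gene-rich arms, called euchromatin, it is found in separate islands, often over transposon sequence and silent genes. Which genes and repeats the 2L islands hold was not analysed here.

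The label was compared with the position of the mark on the same arm. The euchromatic part of 2L was covered over 10.2% of its length in replicate 1 and 19.6% in replicate 2, with 14.9% ± 6.68 as mean and SD (n = 2). The last 2 Mb of the arm were covered over 49.3% in replicate 1 and 45.8% in replicate 2. The euchromatic share was thus 0.21 of the pericentric one in replicate 1 and 0.43 in replicate 2. The difference was -32.7 percentage points ± 9.18 (SD, n = 2), which was larger than the spread between replicates. With the boundary set at 5 Mb from the end of the arm, the mean ratio was 0.54, against 0.32 at 2 Mb and 0.22 at 1 Mb. An exact permutation test that flips the sign of each replicate's difference (two-sided) gave p = 0.5. No smaller value can be reached with n = 2, here or in the comparisons that follow. Depth is unknown because the lists carry no read counts. Whether separate populations of flies were used for each library is not stated, so the spread may be technical.

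The 2L islands were mostly short. Replicate 1 had 30.3 regions per Mb and replicate 2 had 63.3, covering 2.14 Mb in replicate 1 and 4.12 Mb in replicate 2. Their median length was 2295 bp in replicate 1 and 2189 bp in replicate 2, while the combined list had a median of 2101 bp. No region was shorter than 1301 bp in either replicate list, or than 1001 bp in the combined list. Lengths of the middle 50% of regions ran from 1856 to 3760 bp in replicate 1 and from 1753 to 3430 bp in replicate 2. Regions of the last 2 Mb had a median of 3592.5 bp in replicate 1, against 2918 bp in replicate 2, so the euchromatic islands were the shorter ones in both lists.

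A few long islands held a larger share of the marked length than of the count, which follows from choosing them by length. Regions of at least 10 kb numbered 21 in replicate 1 and 35 in replicate 2. They were 3.30% of the 2L islands in replicate 1, against a background of 10.2% over all sequences, and 2.63% in replicate 2, against 5.40%. That background includes sequence next to centromeres, and in the last 2 Mb of 2L the share was 15.7% in replicate 1 and 8.91% in replicate 2. The long 2L islands carried 16.4% of the covered length in replicate 1 and 13.0% in replicate 2 (mean 14.7% ± 2.41, SD, n = 2). In replicate 1 this was the highest value among the euchromatic parts of the 5 large arms, followed by 15.0% on 2R. In replicate 2 it was below the 13.2% on 2R and above the others, at most 11.8% (3L). At the other end, regions under 2.5 kb were 54.5% of the islands and, again by their choice, a smaller 30.2% of the length in replicate 1. In replicate 2 they were 60.5% of the islands and 36.002% of the length.

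**Figure D1:**
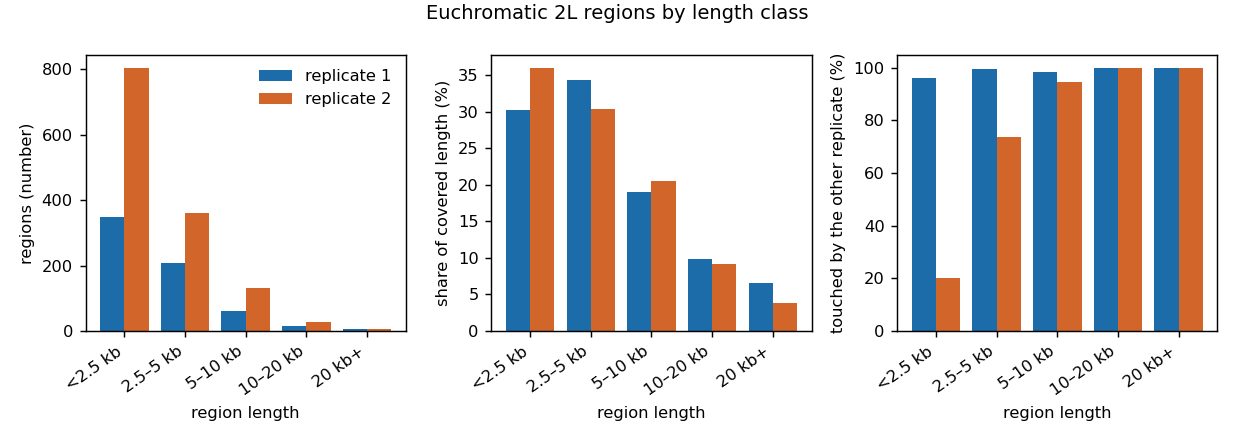
Bars give, for each class of region length in kb, the number of euchromatic 2L regions (left), their share of the covered length in percent (middle) and the share of them in percent that the other replicate list touches (right), for replicate 1 and replicate 2. Regions under 2.5 kb were touched in 96.0% of cases in replicate 1 and in 20.3% in replicate 2, and every region of at least 10 kb was touched in both.

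The authors give each region a score with no stated unit. All of these islands had scores above 0, and values that bear on the scale of the score are given among the closing observations. The median score of the islands was 0.79 in replicate 1 and 0.73 in replicate 2, and that of the combined list was 0.51. In the last 2 Mb of the arm it was 1.06 in replicate 1 and 0.93 in replicate 2. Longer islands had higher scores, with a median of 0.68 under 2.5 kb and 1.61 at 20 kb or more in replicate 1, and of 0.60 and 1.81 in replicate 2. Across islands, Spearman's rho between length and score was 0.80 in replicate 1 (n = 637) and 0.84 in replicate 2 (n = 1329). This is a description across regions of 1 library, which share depth and caller.

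Islands were unevenly spaced. The median gap between neighbours was 11.4 kb in replicate 1 and 5.47 kb in replicate 2, and the longest was 285.0 kb in replicate 1 and 171.4 kb in replicate 2. Gaps of up to 5 kb made up 33.5% of all gaps in replicate 1 and 47.8% in replicate 2. When the euchromatic part was divided into 210 bins of 100 kb, the best covered 38 bins held 50% of the marked length in replicate 1. In replicate 2, 53 bins held it. Of the 210 bins 24 were empty in replicate 1 and 2 in replicate 2, and the same 2 were empty in both.

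Within the euchromatic part of the arm the mark was denser toward the telomere than toward the centromere. The euchromatic part was divided at its middle, position 10505772, into an inner section next to the centromere and an outer section next to the telomere. The inner section was covered over 8.56% in replicate 1 and 16.4% in replicate 2 (mean 12.5% ± 5.55, SD, n = 2). The outer section was covered over 11.8% in replicate 1 and 22.8% in replicate 2 (mean 17.3% ± 7.80). The inner share was 0.73 of the outer one in replicate 1 and 0.72 in replicate 2 (mean 0.72 ± 0.0052, SD, n = 2). The difference of -4.82 percentage points ± 2.25 had the same sign in both replicates and was larger than its spread, with p = 0.5 by the exact sign-flip permutation test. The inner section held 280 islands in replicate 1 and 587 in replicate 2, and the outer section held 357 and 742.

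In bins of 1 Mb the best covered was the first one, at the telomeric end. Its share was 16.9% in replicate 1 and 33.6% in replicate 2, the highest of the 21 bins in each list. It was followed by the bin from 6000001 to 7000000, with 14.9% in replicate 1 and 27.3% in replicate 2, and by that from 4000001 to 5000000, with 16.2% and 24.5%. By the mean of the replicates the least covered was the bin from 17000001 to 18000000, with 5.40% in replicate 1 and 9.66% in replicate 2. The next lowest by the mean directly adjoined the telomeric bin, from 1000001 to 2000000, with 4.21% in replicate 1, the lowest value of that list, and 13.9% in replicate 2. The third lowest by the mean was that from 12000001 to 13000000, with 6.92% in replicate 1 and 13.1% in replicate 2. Marked and sparse sequence therefore stood side by side at the telomeric end, with a mean of 25.2% ± 11.8 in the first bin and 9.05% ± 6.85 (SD, n = 2) in the second.

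Next to the boundary the mark was again denser. The bin from 20000001 to 21011544 was covered over 15.7% in replicate 1 and 21.01% in replicate 2. The bin before it had 7.83% in replicate 1 and 17.8% in replicate 2. Its rank among the 21 bins was 3 in replicate 1 and 7 in replicate 2. Each of the 21 bins was covered more in replicate 2, by a factor between 1.33 in this innermost bin and 3.30 in the bin from 1000001 to 2000000. Bins kept much of their order all the same, with Pearson's r of 0.86 and Spearman's rho of 0.88 across the 21 bins, and 0.90 and 0.90 across the 210 bins of 100 kb. These coefficients are a description across bins of the same libraries.

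**Figure D2:**
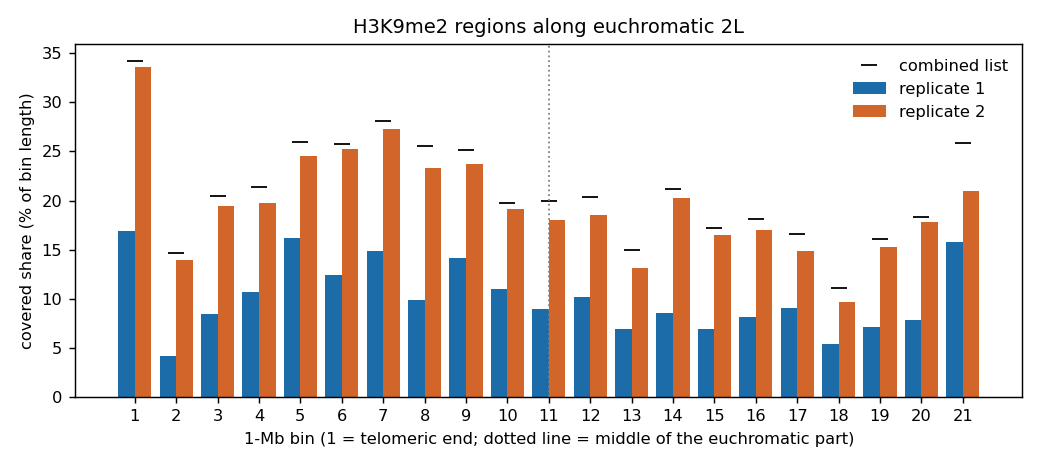
Bars give the share of each 1-Mb bin of euchromatic 2L, in percent, inside enriched regions of replicate 1 and replicate 2, and short black lines give that of the combined list. Bin 1 is the telomeric end, and the dotted line is the middle of the euchromatic part. Bin 1 was the highest in both replicates, and bin 18 was the lowest of the mean, at 5.40% in replicate 1 and 9.66% in replicate 2.

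The excess in the outer section was set against the other large arms, each without its 2 Mb next to the centromere. The ratio of inner to outer share was 0.73 on 2L in replicate 1, against 0.98 on 3R, 1.12 on 3L, 1.30 on 2R and 1.30 on X. In replicate 2 it was 0.72 on 2L, against 0.96 on 3R, 1.00 on 3L, 1.09 on 2R and 1.15 on X. Arm 2L had the lowest ratio in both lists and also in the combined list, with 0.75 against at least 0.97 on the others. The ratio on 2L minus the mean of the other 4 arms came to -0.45 in replicate 1 and -0.33 in replicate 2 (mean -0.39 ± 0.085, SD, n = 2), with p = 0.5 by the exact sign-flip permutation test. Over the whole euchromatic part, 2L was the second lowest of the 5 arms, above 3R, in each of the 3 lists. Its share minus the mean of the other 4 arms came to -1.88 percentage points in replicate 1 and -3.35 in replicate 2 (mean -2.61 ± 1.04, SD, n = 2), again with p = 0.5 by the exact test. With gaps of up to 5 kb joined this difference was -4.05 points, and with the boundary at 5 Mb it was -1.78. The telomeric 1 Mb, in contrast, was covered at least as much on 2L as on any other large arm, with 16.9% against at most 16.4% (X) in replicate 1 and 33.6% against at most 29.6% (2R) in replicate 2.

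**Figure D3:**
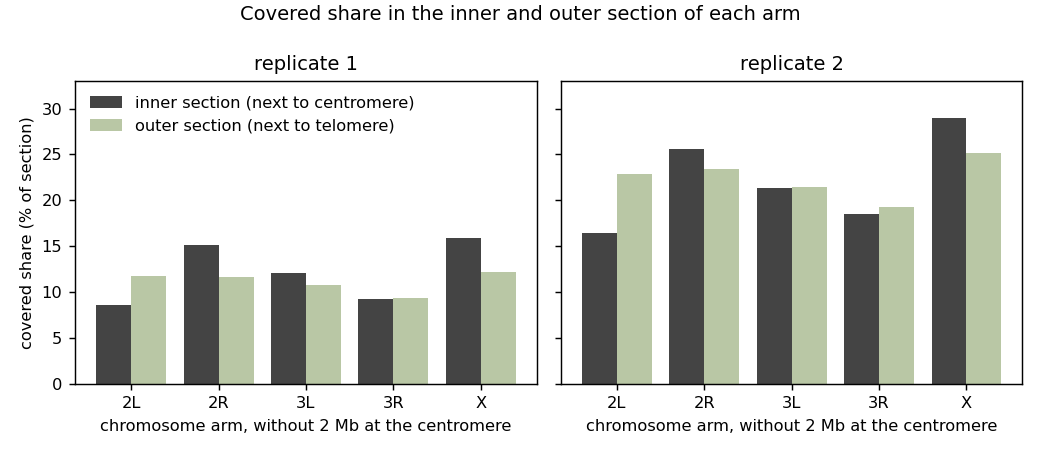
Bars give the covered share in percent of the inner section, next to the centromere, and of the outer section, next to the telomere, for the 5 large arms without their 2 Mb next to the centromere, in replicate 1 (left) and replicate 2 (right). On 2L the inner share was 8.56% and the outer 11.8% in replicate 1, and 16.4% and 22.8% in replicate 2.

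The longest islands common to both replicates were found by intersecting the replicate lists and joining gaps of up to 1 kb. This gave 556 shared regions on euchromatic 2L with a median length of 2439 bp, of which 32 were at least 10 kb and 4 at least 20 kb. Of the 32, 12 lay in the inner section and 20 in the outer. The 10 longest spanned 224.5 kb and held 10.9% of the shared length, and the next in length measured 14.6 kb.

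With gaps of up to 1 kb joined, the longest shared island lay at 16763404–16803634 (40.2 kb). That length depends on the joining, since no single island exceeded 34907 bp in replicate 1 or 35245 bp in replicate 2. It was made up of 3 regions in replicate 1, with a length-weighted mean score of 1.49, and of 4 in replicate 2, with 1.54. A total of 97.6% of it was covered in replicate 1 and 97.2% in replicate 2. The nearest other of the 10 islands was 2430 kb away. The 1-Mb bin that follows on its centromeric side was the least covered of the 21 euchromatic bins by the mean of the replicates.

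Other long islands lay in pairs. The islands at 4478992–4513883 (34.9 kb) and 4515243–4534300 (19.1 kb) were 1.36 kb apart, so joining gaps of up to 1 kb left them separate. Each was a single region in all 3 lists. The first scored 1.38 in replicate 1 and 1.85 in replicate 2, and the second scored 1.35 in replicate 1 and 1.77 in replicate 2. A second pair lay at 5125340–5144837 (19.5 kb) and 5157713–5173925 (16.2 kb), 12.9 kb apart. Scores were 1.51 in replicate 1 and 1.94 in replicate 2 in the first of that pair, and 1.73 in replicate 1 and 1.64 in replicate 2 in the second. The 100-kb bin from 4500001 to 4600000, which holds the second island of the first pair and the end of its first, was covered over 53.9% in replicate 1 and 65.4% in replicate 2, and that from 5100001 to 5200000, which holds the second pair, over 55.6% and 66.3%.

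The pair nearest the centromere lay at 20098705–20117876 (19.2 kb) and 20175651–20197992 (22.3 kb), 57.8 kb apart. The second of these had the highest mean score of the 10 in every list, with 2.19 in replicate 1 and 2.79 in replicate 2, and with 2.18 in the combined list. The 100-kb bin from 20100001 to 20200000, which holds the pair except for the start of its first island, was covered over 62.4% in replicate 1 and 54.4% in replicate 2. It was 1 of 4 bins among 210 with a higher share in replicate 1. Near the telomere the island at 637110–658497 (21.4 kb) was unbroken in the 3 lists and scored 1.42 in replicate 1 and 1.65 in replicate 2. Its 100-kb bin was the best covered of the 210 euchromatic bins by the mean of the replicates, with 55.3% in replicate 1 and 72.8% in replicate 2.

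The last 2 of the 10 islands scored lowest. The one at 14317336–14333325 (16.0 kb) had a mean score of 1.10 in replicate 1 and 1.43 in replicate 2, and the one at 11261964–11277726 (15.8 kb) had 0.95 in replicate 1 and 1.18 in replicate 2. All 10 scored above the list medians of 0.79 and 0.73, which follows in part from their choice by length, since long islands scored higher.

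**Figure D4:**
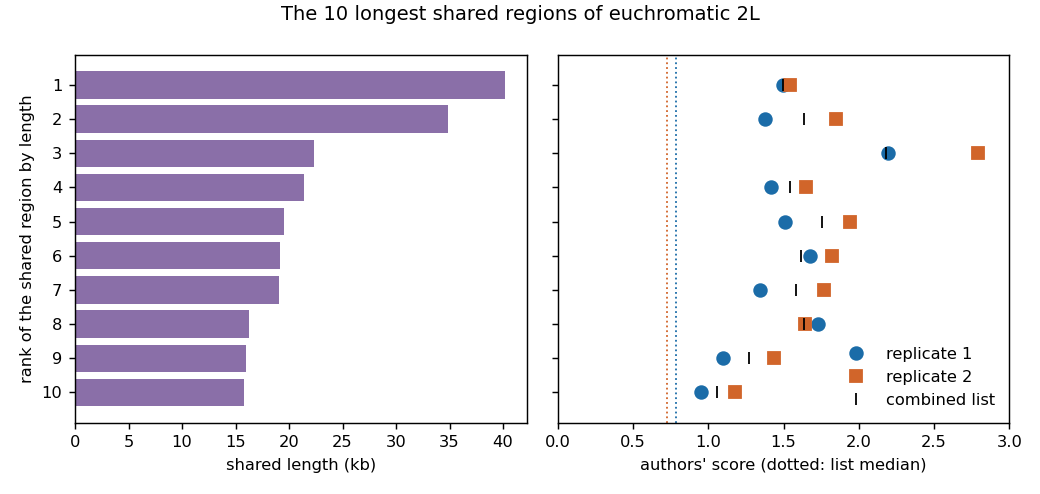
For the 10 longest shared regions of euchromatic 2L, ranked from the top, bars give the shared length in kb (left) and symbols give the authors' length-weighted mean score in replicate 1, replicate 2 and the combined list (right). Dotted lines mark the median island score of 0.79 in replicate 1 and 0.73 in replicate 2, and all 10 islands lay above both lines.

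The highest scores belonged to short regions, and few of these were high in both libraries. In replicate 1 the top 3 were at 4539278–4541317 (2040 bp, score 3.08), 364146–365831 (1686 bp, 2.52) and 6992618–6996856 (4239 bp, 2.52). Replicate 2 held the first of these inside a 24560-bp region with a score of 1.77, the second as a region with 0.57 and the third as a region with 2.15. In replicate 2 the top 3 were at 11315330–11317621 (2292 bp, score 5.11), 13242106–13243950 (1845 bp, 3.53) and 5175585–5178837 (3253 bp, 3.41). Replicate 1 held no region over the first and the second, and 2 regions over the third, the higher of which scored 2.497. The regions at 6992618–6996856 and 5175585–5178837 were thus the only ones of these 6 with a score above 2 in both libraries. The region at 5175585–5178837 lies 1.66 kb beyond the end of the island at 5157713–5173925.

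Between the islands lay 1446 stretches, short and long, without any region in the 3 lists. These stretches made up 78.1% of the euchromatic part, with a median length of 5.05 kb. The 5 longest were at 10858574–10972921 (114.3 kb), 8541676–8650502 (108.8 kb), 4691511–4799487 (108.0 kb), 19579575–19686783 (107.2 kb) and 11548384–11646735 (98.4 kb). Stretches of at least 50 kb numbered 66 and made up 21.8% of the euchromatic part, with 43 in the inner section and 23 in the outer.

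The replicate lists were then compared region by region. Nearly every island of replicate 1 was found again in replicate 2, while most islands of replicate 2 were absent from replicate 1. Of the 637 islands of replicate 1, 621 (97.5%) were touched by replicate 2 over at least 1 bp, against a background of 93.6% over all sequences. Of the 1329 islands of replicate 2, 587 (44.2%) were touched by replicate 1, against a background of 60.9%. When 50% of a region had to be shared, 606 islands of replicate 1 (95.1%) passed, against 89.8% over all sequences, and 523 of replicate 2 (39.4%), against 55.7%. These backgrounds include sequence next to centromeres, and touched shares of the other euchromatic arms alone are not given here. The lists shared 2.02 Mb on euchromatic 2L, or 94.5% of what replicate 1 marked and 49.0% of what replicate 2 marked. Shared length as a share of all length marked in either list, the Jaccard index, was 47.6%, within the range of 45.9% (X) to 50.7% (2R) on the other large arms and below the 74.3% in the last 2 Mb of 2L.

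The 742 islands listed in replicate 2 alone were mostly short and low in score. Their median length was 1846 bp and their median score 0.61, against 3502 bp and 1.04 for those touched by replicate 1. Of these, 248 (33.4%) lay within 5 kb of a replicate 1 region, and the median distance to one was 9.28 kb. In the lowest score quartile of replicate 2, 12.6% of islands were touched by replicate 1, and in the highest, 95.2%. In replicate 1 between 95.6% and 99.4% of each quartile was touched, so nearly all islands were touched whatever their score and a gradient had little room to show. The longest island of replicate 2 alone measured 7999 bp, and the highest score among them was 5.11, the top of the replicate 2 islands on euchromatic 2L.

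**Figure D5:**
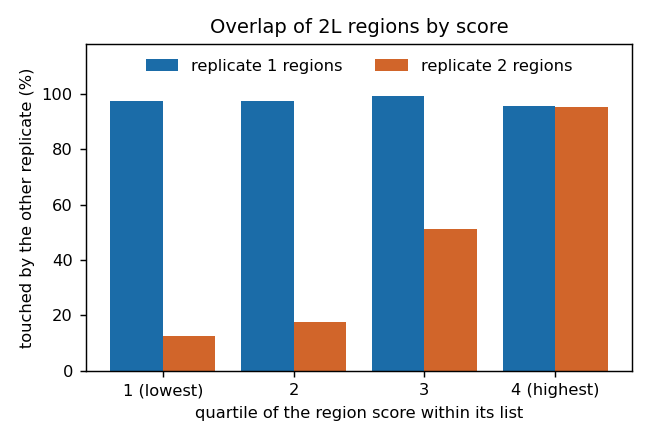
Bars give the share, in percent, of euchromatic 2L regions of replicate 1 and of replicate 2 that the other replicate list touches over at least 1 bp, by quartile of the authors' score within each list. In replicate 2 the share was 12.6% in the lowest quartile and 95.2% in the highest, and in replicate 1 it was at least 95.6% in each.

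Where an island of one list matched exactly 1 island of the other, it was usually longer in replicate 2. There were 496 such matched islands, and their median length was 2251 bp in replicate 1 against 3251.5 bp in replicate 2. Of these, 438 (88.3%) were longer in replicate 2, against a background of 77.3% over all sequences, with a median length ratio of replicate 2 to replicate 1 of 1.25. The replicate 1 island lay wholly inside its replicate 2 partner in 349 cases (70.4%), a share that was not computed over all sequences. The score was higher in replicate 2 for 421 of the 496, against a background of 74.5%, although the scales of the lists may differ. The backgrounds for length and score include sequence next to centromeres. Across the matched islands Spearman's rho was 0.74 for scores and 0.72 for lengths, as a description across regions.

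Replicate 2 touched 97.5% of the replicate 1 islands, against 93.6% of replicate 1 regions over all sequences. Only 16 islands of replicate 1 (2.51%) were missing from replicate 2. Medians of length and score were 2068 bp and 0.78, against 2380 bp and 0.79 for the others. Of the 16, 4 lay beyond 20 Mb, in the innermost bin, and 3 of these were at 20163459–20165459, 20200368–20202516 and 20210596–20215929, around the high-scoring island at 20175651–20197992. These 3 were chosen after their values were seen. The innermost bin held 42 of the 637 replicate 1 islands.

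The combined list followed replicate 2 in number and span. Its 1435 islands covered 20.99% of euchromatic 2L, and it contained 98.9% of the length listed in replicate 1 and 95.7% of that in replicate 2. Of its islands, 549 (38.3%) touched both replicate lists, with medians of 3795 bp in length and 0.86 in score. A further 694 (48.4%) touched replicate 2 alone, with 1839 bp and 0.44, and 19 touched replicate 1 alone. The shares of these classes over all sequences were not computed, so the counts cannot be read as particular to 2L.

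At the boundary of 21011544, replicate 1 listed its last island inside at 20928088–20934150 (score 1.31) and its first region outside at 21080976–21082917 (0.62). In replicate 2 these were at 21008928–21010731 (0.47) and 21052729–21054251 (0.20), and in the combined list at 21009224–21010618 (0.25) and 21052630–21054260 (0.14). No region of the 3 lists crossed the boundary.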

How the data were processed

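Input and ChIP libraries were made from formaldehyde-fixed, sonicated chromatin, per the labels' protocols. The aligner was Bowtie 0.12.7, per the submitters' processing notes. Coordinates are on FlyBase Release 5, per the file headers. How regions were called, at which threshold, and how the combined list was made is not given in the sources used here. The score of each region is deposited by the authors with no stated unit, and it served here to rank regions inside each list and to describe them. Scores of matched and named regions were also set side by side between lists, although the scales of the lists may differ. The labels' replicate numbers link each ChIP library to an input, and input values were not analysed here.

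Members and lists were chosen with earlier results of these data known. Covered shares are merged lengths over sequence length, computed in Python 3.11.15 with numpy 2.4.6 and scipy 1.17.1. Differences were taken within each replicate list, and an exact sign-flip test (two-sided) was run over the 2 replicates. Interval arithmetic was tested on 20 simulated pairs of lists, and all 20 matched a base-by-base count. The named regions are the 10 longest shared regions (gaps up to 1 kb joined), the 3 highest scores of each replicate, the 5 longest stretches free of regions, and the 3 most and least covered bins. The last 1-Mb bin includes the final 11.5 kb. No gene was assigned to a region, because the gene table at hand is on another release. Alternatives were stricter or equalised lists, a minimum length of 1 kb (which removed no region of either replicate list), joined gaps, the combined list, other boundaries and leaving out each replicate.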

Additional observations from a re-analysis of the deposited data

Results flagged for a closer look

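The combined list classed 3 regions of euchromatic 2L as depleted, which were not used above. They lay at 5146292–5147870 (score -0.053), 14997012–14998518 (-0.0022) and 18387990–18389406 (-0.0046). Enriched regions of replicate 2 held 100%, 80.2% and 100% of their length in that order, and those of replicate 1 held 0% of each. The first lies between the islands at 5125340–5144837 and 5157713–5173925.

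The combined list held 173 islands (12.1%) that neither replicate list touched, which was close to the background of 11.5% over all sequences. Their median length was 1205 bp and their median score 0.42. Of the 173, 115 were shorter than 1301 bp, the shortest length in the replicate lists. A total of 88 lay in the inner section and 85 in the outer, with a median distance of 2.71 kb to the nearest region of a replicate list. The highest score of the combined list on euchromatic 2L, 3.96, belonged to one of them, at 10598632–10599638 (1007 bp).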

How the results depend on the processing

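The ratio of euchromatic to pericentric share, the ratio of inner to outer share and the difference from the other arms kept their direction under every alternative that was run, but not their size. The first was 0.54 with the boundary at 5 Mb, against 0.32, and the last was -4.05 points with gaps of up to 5 kb joined, against -2.61. The ratio of inner to outer share was 0.81 with the boundary at 1 Mb (0.85 in replicate 1 and 0.76 in replicate 2), against 0.72. With the better-scoring 50% of each list it was 0.65. The minimum length of 1 kb removed no region of either replicate list and tested nothing. The alternatives of leaving out the telomeric or the innermost 1 Mb were chosen after seeing the data, and gave inner to outer ratios of 0.77 and 0.68. Arm 2L had the lowest inner to outer ratio of the 5 arms in all 19 pairs of a setting and a list, of which the equal-length one of replicate 1 repeats the unreduced list. The contrast was smaller with the boundary at 5 Mb. There 2L had 0.70 in each replicate, against 0.83 in replicate 1 and 0.81 in replicate 2 on 3L, the next lowest. The mean of the other arms was then 1.01 in replicate 1 and 0.93 in replicate 2, against 1.18 and 1.05 at 2 Mb. The covered share was 8.06% with the better-scoring 50% of each list, which by construction keeps fewer regions. The share of length in regions of at least 10 kb was 26.5% with that selection, 18.2% at equal covered length, and 25.8% and 57.9% with gaps of up to 1 kb and 5 kb joined, where joining makes regions longer. The Jaccard index was 44.8% with the better-scoring 50%, 60.5% at equal covered length, 45.7% with gaps of up to 5 kb joined, and 48.2% and 47.70% with boundaries of 1 Mb and 5 Mb; the cause was not tested. Replicate 1 islands touched by replicate 2 were 95.1% when 50% of the region had to be shared and 93.1% with the better-scoring 50%, and replicate 2 islands touched by replicate 1 were 39.4% when 50% had to be shared. Leaving out each replicate gave a covered share of 10.2% to 19.6%, a pericentric ratio of 0.21 to 0.43, an inner to outer ratio of 0.72 to 0.73, an arm difference of -3.35 to -1.88 points and a long-region share of 13.0% to 16.4%. No paired analysis was possible because only the ChIP libraries carry region lists, so ChIP could not be set against its numbered input. The differences tested above were taken within each replicate list. Depth is unknown, and the number and length of called regions usually depend on it.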

Other observations

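Scores repeated exactly in the lists. Of the euchromatic 2L islands, 202 of 637 in replicate 1 (31.7%), 490 of 1329 in replicate 2 (36.9%) and 372 of 1435 in the combined list (25.9%) had a score that occurred more than once in the whole list. The commonest score was 0.67 in replicate 1 and 0.53 in replicate 2, and 0.79 in the combined list. Relative to it, 25 island scores in replicate 1 lay at a base-2 log of a ratio of whole numbers up to 20, within a relative tolerance of 1e-06, against 6 with the natural log and 6 with base 10. In replicate 2 there were 66 with base 2, against 14 with the natural log and 15 with base 10, and in the combined list 54, against 4 and 5. The highest scores of replicate 2, 5.11 and 3.53, differed by 1.58, which on base 2 is a ratio of 3. Both regions were under 2.5 kb and were not touched by replicate 1. In the combined list 15 islands scored above 2, and 8 of these were shorter than 1301 bp.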
